A study of Mus musculus with 4 samples.

Results

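Osteopontin, encoded by Spp1, and the receptor genes Cd44, Itgav, Itgb1, Itgb3 and Itgb5 were followed across 4 single-cell RNA libraries. These 6 of the 32285 genes in the matrices were chosen by name, as a ligand and chains of its known receptors. Spp1 was already a marker of cell groups in the study that reported these data. Cells were barcodes with at least 5000 unique molecular identifiers (UMIs, each standing for 1 captured RNA molecule), at least 1500 genes and at most 20% mitochondrial UMIs. This rule kept 22049 of 39891 barcodes. The question was how Spp1 molecules were spread over cells, and whether the receptor genes were found in those same cells.

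The cells were C3H10T1/2 mesenchymal progenitor cells (MPC), an established mouse embryonic line. All 4 libraries came from cells that carried a lentiviral, epitope-tagged human histone H3 transgene under the EF1 promoter, selected with puromycin, which was either wild type (H3WT) or held the R26C substitution (H3R26C). The endogenous H3 genes remained in both. H3WT and H3R26C cells each received DMSO, the vehicle, or 5-Azacitidine (5-Aza), an inhibitor of DNA methyltransferases used to start mesenchymal differentiation, at 3 µM for 24 h. The 5-Aza cells were collected on day 28, and the day of collection of the DMSO cells was not given in the sources used here, so treatment and time in culture cannot be told apart. The files list mouse genes only, so the transgene itself could not be checked. Each condition had 1 library, so no difference between conditions has a replicate check. The intervals below are exact 95% Poisson intervals for levels and exact 95% Clopper-Pearson intervals for shares. Intervals of log2 ratios come from the exact 95% Clopper-Pearson interval of the split of UMIs between the groups compared. Intervals of levels and ratios treat UMIs as independent draws, and those of shares treat cells so. None holds the spread between cultures. Over unthinned kept cells the variance of Spp1 UMIs was 68.9 to 144 times the mean. The intervals of Spp1 levels are therefore narrower than a spread over cells would give.

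Osteopontin is a secreted, acidic and heavily phosphorylated glycoprotein that is best known from bone matrix but is also made by activated macrophages and by many mesenchymal and tumour cells. Its RGD sequence is bound by integrins, which are pairs of an alpha and a beta chain. The alpha v chain (Itgav) pairs with beta 1 (Itgb1), beta 3 (Itgb3) or beta 5 (Itgb5), and these pairs also bind other matrix proteins such as fibronectin and vitronectin. CD44 is a single-chain receptor whose main ligand is the polysaccharide hyaluronan and which has also been described as an osteopontin receptor.

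The kept cells held 84060490 to 110712425 UMIs per library. Median UMIs per cell were 22420 in H3WT DMSO, 13149 in H3WT 5-Aza, 16598 in H3R26C DMSO and 13123 in H3R26C 5-Aza. Because shares of cells with a UMI depend on depth, 5000 UMIs were drawn at random from each cell (thinning) before cells were compared. Between 24 and 58 kept barcodes were shared by any 2 libraries, at most 1.11% of the smaller one. Markers of other cell types that make osteopontin were measured. The 8 macrophage and osteoclast markers summed to 5.96 CPM (UMIs per 1000000) in H3WT DMSO, 45.1 in H3WT 5-Aza, 3.38 in H3R26C DMSO and 39.5 in H3R26C 5-Aza, and were thus higher in both 5-Aza libraries. The highest single markers were Ctsk at 22.6 CPM in H3WT 5-Aza and Fcer1g at 17.8 CPM in H3R26C 5-Aza. Of the 8 markers, 3 were at 0 in each DMSO library and 2 in each 5-Aza library, with Tyrobp at 0 in all 4 and Adgre1 at 0 in both 5-Aza libraries. The part of these markers in the Spp1 level was not tested. The 5 osteoblast markers summed to 3.59 to 25.3 CPM, nearly all of it Dmp1. Ly6a, the mesenchymal progenitor marker with the highest level, was at 578 to 1582 CPM. No doublets were removed.

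Spp1 lies on chromosome 5 of GRCm38 at 104435118 to 104441050 on the plus strand. The 250 bases before its first RefSeq start held 3 CG dinucleotides, the bases at which DNA methyltransferases act, and the same stretch of Cd44 on chromosome 2 held 5. Both stretches are shown because these were the 2 members with the largest differences between libraries and the agent given inhibits DNA methylation. The sequences are from RefSeq on GRCm38.p6, 5′ to 3′ on the gene's strand, with each CG in capitals.
Spp1, chr5:104434861-104435110, plus strand: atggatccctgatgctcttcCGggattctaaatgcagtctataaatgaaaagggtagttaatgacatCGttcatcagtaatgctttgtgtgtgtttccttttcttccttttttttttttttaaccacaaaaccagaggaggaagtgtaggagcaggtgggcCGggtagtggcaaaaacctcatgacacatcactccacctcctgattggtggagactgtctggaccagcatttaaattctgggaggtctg
Cd44, chr2:102901666-102901915, minus strand: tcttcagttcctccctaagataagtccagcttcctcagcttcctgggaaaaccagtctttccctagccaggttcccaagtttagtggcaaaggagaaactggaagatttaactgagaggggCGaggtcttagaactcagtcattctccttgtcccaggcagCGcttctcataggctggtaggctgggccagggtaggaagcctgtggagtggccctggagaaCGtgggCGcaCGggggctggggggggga
In Spp1 the CG pairs began 230, 183 and 89 bases before the start, and in Cd44 they began 129, 89, 28, 22 and 18 bases before it. Itgav, Itgb1 and Itgb5 held 18, 21 and 18 CG pairs in the same stretch. Of 32851 RefSeq stretches of this length, 92.1% held a CG, with a median of 6. No more than the 3 of Spp1 were held by 37.8% and no more than the 5 of Cd44 by 49.65%. The same stretch before a second RefSeq start of Spp1 also held 3. In GENCODE M21 on the same build, Cd44 spans 102811141 to 102901665 on the minus strand of chromosome 2 and Itgav spans 83724397 to 83806916 on its plus strand. The beta chain genes lie on the plus strands of chromosome 8 (Itgb1, 128685654 to 128733200), chromosome 11 (Itgb3, 104608000 to 104670476) and chromosome 16 (Itgb5, 33829665 to 33949338). These counts describe the letters only, and methylation was not measured in these files.

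Spp1 was at 275 CPM in H3WT DMSO, 847 CPM in H3WT 5-Aza, 476 CPM in H3R26C DMSO and 4905 CPM in H3R26C 5-Aza. The H3R26C 5-Aza library stood far above the other 3, and the H3WT DMSO library was lowest. The study that reported these data had described its Spp1-positive groups as made up nearly wholly of H3R26C 5-Aza cells. The high Spp1 level of that library was thus known beforehand and is not an independent finding. On the log2(CPM + 1) scale, the difference of 5-Aza from DMSO was 1.62 in H3WT (interval 1.60 to 1.64) and 3.36 in H3R26C (interval 3.35 to 3.38). The difference of H3R26C from H3WT was 0.79 with DMSO (interval 0.77 to 0.81) and 2.53 with 5-Aza (interval 2.52 to 2.54). With 5-Aza, 49 of 9023 genes with at least 10 CPM in either library had a larger ratio of H3R26C to H3WT than Spp1. Without the cells of 3 or more mitosis marker UMIs, the difference between the DMSO libraries was 0.50.

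Cd44 followed the same order of libraries at its extremes. Its level was 15.5 CPM in H3WT DMSO, 25.7 CPM in H3WT 5-Aza, 24.1 CPM in H3R26C DMSO and 57.4 CPM in H3R26C 5-Aza. The 2 middle libraries had overlapping intervals. The difference of 5-Aza from DMSO was 0.70 on the log2 scale in H3WT and 1.22 in H3R26C (interval 1.15 to 1.29). H3R26C was higher than H3WT by 0.61 with DMSO and by 1.13 with 5-Aza (interval 1.06 to 1.20).

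The integrin chains were not in the order of Spp1. Itgav was at 65.8 CPM in H3WT DMSO, 47.1 CPM in H3WT 5-Aza, 67.3 CPM in H3R26C DMSO and 48.8 CPM in H3R26C 5-Aza. It was thus lower in both 5-Aza libraries, by log2 ratios of -0.47 in H3WT and -0.46 in H3R26C. Itgb5 showed the same split, with 110 and 112 CPM in the DMSO libraries and 93.5 and 92.5 CPM in the 5-Aza libraries of H3WT and H3R26C. Its log2 ratios of 5-Aza to DMSO were -0.24 and -0.27.

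Itgb1, the beta chain shared by the largest set of integrins, was at 395 CPM in H3WT DMSO, 520 CPM in H3WT 5-Aza, 386 CPM in H3R26C DMSO and 407 CPM in H3R26C 5-Aza. The H3WT 5-Aza library was highest and the other 3 lay close together. Itgb3, which with alpha v forms the vitronectin receptor, was at 6.04 CPM in H3WT DMSO, 5.90 CPM in H3WT 5-Aza, 9.48 CPM in H3R26C DMSO and 9.81 CPM in H3R26C 5-Aza. Both H3R26C libraries lay above both H3WT libraries, with log2 ratios of 0.57 for DMSO and 0.65 for 5-Aza, and the treatments differed by less than counting error within each histone. Itgb3 was under 10 CPM everywhere and was therefore the 1 member left out of the counts that follow.

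**Figure D1:**
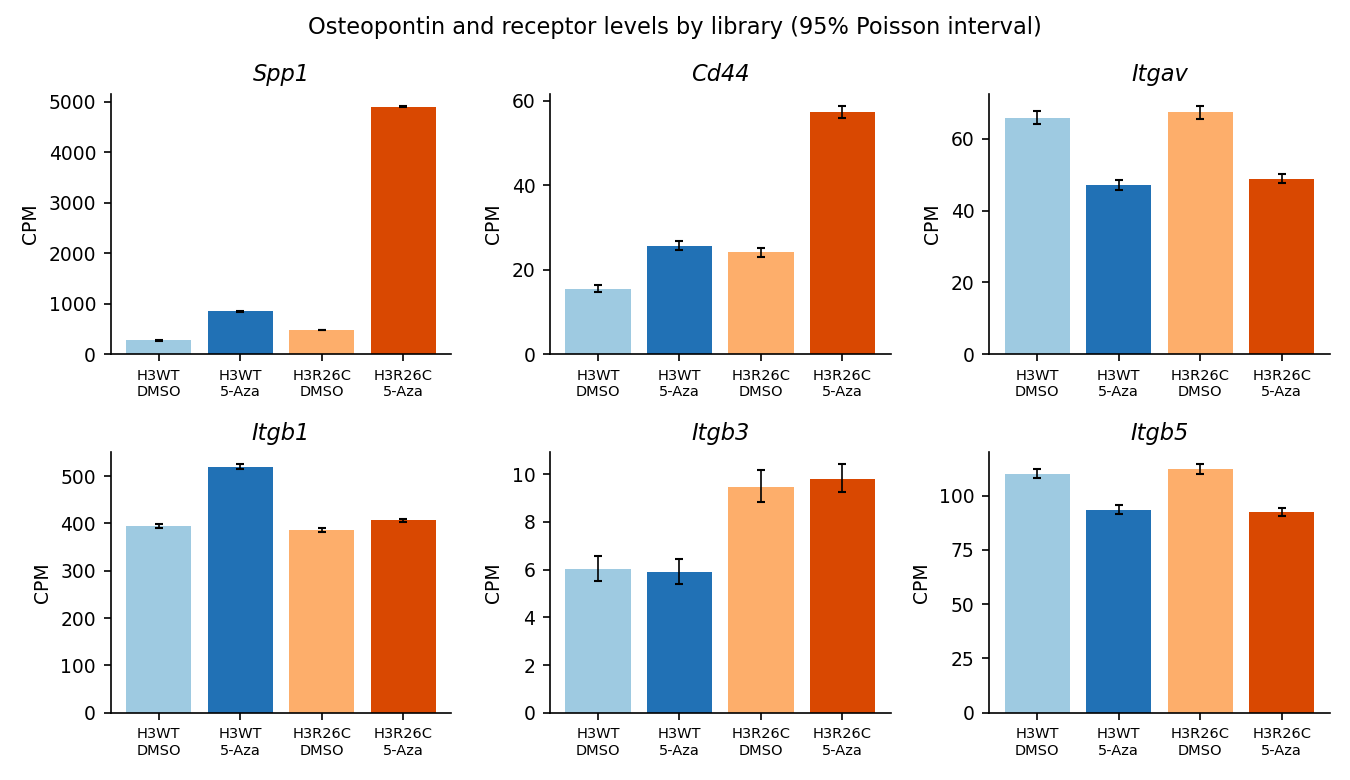
Level of each gene in CPM (vertical axes, each from 0) in the 4 libraries, with exact 95% Poisson intervals for counting error. Spp1 and Cd44 were highest in H3R26C 5-Aza, Itgav and Itgb5 were lower in both 5-Aza libraries, and Itgb3 was higher in both H3R26C libraries.

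Against a log2 ratio of 1 in size, 1 of the 5 members counted was higher in H3WT 5-Aza than in H3WT DMSO (Spp1), where 2.32% of 8764 genes were called higher and 0.251% lower. In H3R26C 5-Aza against H3R26C DMSO, 2 of 5 were higher (Spp1 and Cd44), where 5.25% of 9066 genes were higher and 3.18% lower. In H3R26C DMSO against H3WT DMSO, 0 of 5 were called, where 1.19% of 8704 genes were higher and 0.437% lower. In H3R26C 5-Aza against H3WT 5-Aza, 2 of 5 were higher (Spp1 and Cd44), where 3.58% of 9023 genes were higher and 2.47% lower. The high Spp1 level of H3R26C 5-Aza was known when the members were chosen, so its calls in that library are not independent of that choice. No member was lower by this amount in any of the 4 comparisons. With a pseudocount of 10 CPM in place of 1, the Cd44 ratios were 0.98 in H3R26C 5-Aza against DMSO and 0.92 against H3WT 5-Aza, just under the line.

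Spp1 molecules were spread very unevenly over cells. After thinning to 5000 UMIs, a Spp1 UMI was found in 24.2% of H3WT DMSO cells (22.8 to 25.6%), 51.2% of H3WT 5-Aza cells (49.9 to 52.5%), 28.5% of H3R26C DMSO cells (27.2 to 29.9%) and 91.0% of H3R26C 5-Aza cells (90.3 to 91.6%). Without thinning these shares were 36.5%, 62.0%, 37.2% and 96.3%. The sarcomeric class described below had a Spp1 UMI in 25.4% of its thinned cells in H3WT 5-Aza and in 81.3% in H3R26C 5-Aza. The remaining cells, also described below, had a Spp1 UMI in 50.1% and 90.2% of theirs. At least 5 Spp1 UMIs were found in 5.97% of sarcomeric and 22.1% of the remaining cells of H3WT 5-Aza, and in 45.5% and 69.1% of H3R26C 5-Aza. Median UMIs before thinning were 12794 and 12896 in these H3WT classes and 19330 and 12424 in these H3R26C classes.

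The mean was 1.10 Spp1 UMIs per thinned cell in H3WT DMSO, 3.80 in H3WT 5-Aza, 1.95 in H3R26C DMSO and 24.5 in H3R26C 5-Aza. The medians were 0, 1, 0 and 13, and the 90th percentiles were 3, 11, 6 and 62. In H3R26C 5-Aza the whole distribution lay higher, since its lower quartile of 3 UMIs equalled the 90th percentile of H3WT DMSO. Barcodes left out by the cell filter held 2173 CPM of Spp1 in this library and 109 CPM in H3R26C DMSO. The part of free RNA in cells with few Spp1 UMIs was not tested. Cells without a Spp1 UMI made up 75.8%, 48.8%, 71.5% and 9.04% of the libraries in the same order, where a Poisson distribution with the same mean would give 33.4%, 2.24% and 14.3% in the first 3 and near 0 in the last.

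The richest cells held much of the RNA in the DMSO libraries and less of it in H3R26C 5-Aza. The top 10% of cells held 80.5% of the Spp1 UMIs in H3WT DMSO, 60.5% in H3WT 5-Aza, 76.4% in H3R26C DMSO and 42.1% in H3R26C 5-Aza. The top 1% held 25.3%, 16.8%, 18.0% and 8.83%. A level of at least 20 UMIs per thinned cell was reached by 25 cells of the H3WT DMSO library and 94 of the H3R26C DMSO library, and by 238 and 3001 cells of the H3WT and H3R26C libraries with 5-Aza. At least 100 UMIs were found in 8 cells of H3WT 5-Aza and 278 cells of H3R26C 5-Aza, and in 0 cells of both DMSO libraries. A limit of 3 cells for a count of 0 stands for 0.0809% of H3WT DMSO and 0.0635% of H3R26C DMSO cells, and the exact two-sided interval reached 0.0994% and 0.0780%. The highest single cell had 80, 227, 55 and 347 UMIs.

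**Figure D2:**
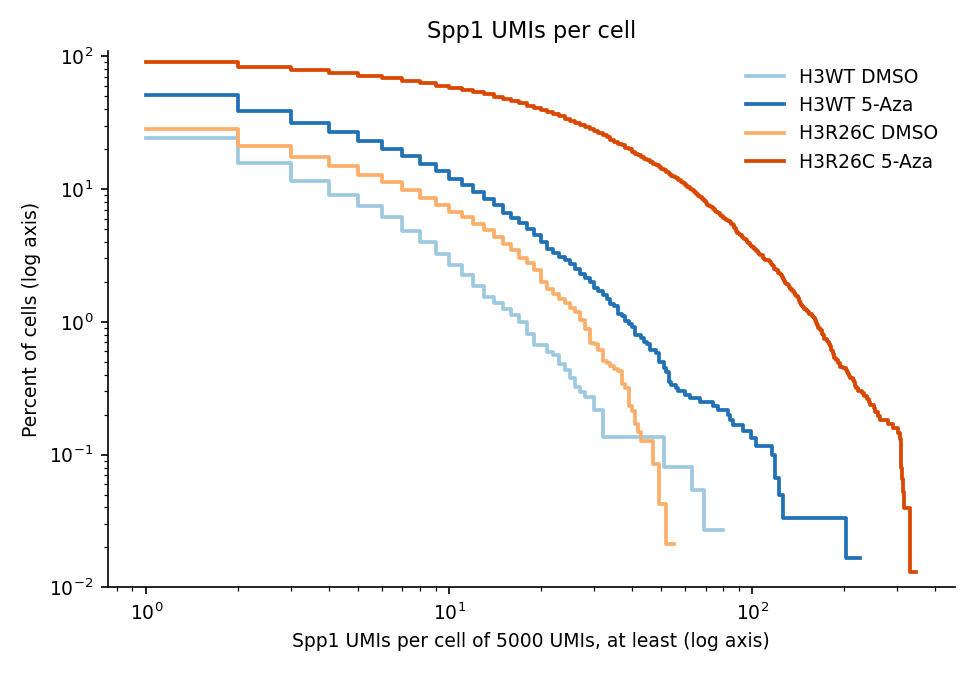
Share of cells (vertical log axis, percent) with at least the number of Spp1 UMIs on the horizontal log axis, after each cell was thinned to 5000 UMIs, for the 4 libraries. The H3R26C 5-Aza curve lies above the others throughout, with 39.4% of its cells at 20 UMIs or more against 3.97% in H3WT 5-Aza.

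The ratio of variance to mean of Spp1 over thinned cells was 12.7 in H3WT DMSO, 21.8 in H3WT 5-Aza, 13.9 in H3R26C DMSO and 45.9 in H3R26C 5-Aza. Ranked by this ratio, Spp1 was 7th of 8373 genes, 22nd of 8564, 11th of 8495 and 6th of 8660. The receptors had ratios of 1.08 to 1.17 for Cd44, 1.04 to 1.17 for Itgav, 1.24 to 1.58 for Itgb1 and 1.06 to 1.14 for Itgb5, but this ratio approaches 1 at a low mean and does not compare spread between genes of unequal level. The excess of variance over a Poisson count, divided by the squared mean, was 10.7, 5.48, 6.64 and 1.84 for Spp1 in the same order of libraries. For Cd44 it was 1.401, 1.498, 0.746 and 0.594, above the median of all genes in each library, which was 0.156 to 0.285. Itgav, Itgb1 and Itgb5 lay at 0.105 to 0.633. Itgb3, which had at least 0.05 UMIs per cell only in H3R26C 5-Aza, was at 2.95 there, above the 1.84 of Spp1.

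Deeper cells had a higher Spp1 level in 3 libraries. The cells of each library were split into 4 equal groups by UMIs. From the shallowest to the deepest group, Spp1 went from 109 to 476 CPM in H3WT DMSO, from 559 to 1117 CPM in H3WT 5-Aza and from 179 to 776 CPM in H3R26C DMSO, with each group above the one before it. In H3R26C 5-Aza the groups were at 4566, 5372, 4868 and 4815 CPM, with no such order. The part of depth in these levels was not tested. Near the UMI threshold, barcodes with 5000 to 6000 UMIs had 98.7, 432, 257 and 2652 CPM of Spp1 in H3WT DMSO, H3WT 5-Aza, H3R26C DMSO and H3R26C 5-Aza, and those with 4000 to 5000 UMIs had 73.9, 302, 50.4 and 2211 CPM.

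Cd44 was found more often in cells with Spp1 in all 4 libraries. In H3WT DMSO it had a UMI in 11.2% of thinned cells with a Spp1 UMI (9.16 to 13.4%) and in 4.98% of those without (4.20 to 5.85%). The same shares were 12.6% and 7.59% in H3WT 5-Aza, 15.1% and 8.20% in H3R26C DMSO, and 23.7% and 14.4% in H3R26C 5-Aza. The intervals of the cells with and without Spp1 did not overlap in any library. Taken as levels, in UMIs per 1000000 UMIs other than Spp1 (relative UMIs below), Cd44 was higher with Spp1 by log2 1.17 (interval 0.82 to 1.51), 0.80 (0.58 to 1.02), 0.92 (0.68 to 1.16) and 0.79 (0.53 to 1.07) in the same order. A second random thinning gave 0.80, 1.04, 0.81 and 1.34, and the unthinned cells gave 1.19, 0.87, 1.01 and 1.18, so the order of the libraries changed with the draw. The values of the second thinning lay outside the intervals above in H3WT DMSO, H3WT 5-Aza and H3R26C 5-Aza. Intervals of thinned cells thus leave out the spread between draws. Of the H3R26C 5-Aza cells, 689 lacked Spp1.

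Cells with Spp1 differed in other ways as well. Their mitosis marker level was higher in each library, at 312 against 115 CPM of the thinned cells in H3WT DMSO, 427 against 213 in H3WT 5-Aza, 758 against 160 in H3R26C DMSO and 685 against 291 in H3R26C 5-Aza. The macrophage and osteoclast markers were higher with Spp1 in both 5-Aza libraries, at 56.4 against 31.7 CPM in H3WT and 41.6 against 24.7 CPM in H3R26C. With DMSO they were at 9.365 against 4.27 CPM in H3WT and 3.56 against 4.14 CPM in H3R26C. The osteoblast markers were higher with Spp1 in all 4 libraries. They were at 7.36 against 2.84 CPM in H3WT DMSO, 14.5 against 3.28 in H3WT 5-Aza, 8.895 against 3.20 in H3R26C DMSO and 27.45 against 6.10 in H3R26C 5-Aza. The skeletal muscle markers were lower with Spp1 in both 5-Aza libraries, at 1177 against 3179 CPM in H3WT and 1938 against 4772 CPM in H3R26C. The adipocyte and the mesenchymal progenitor markers were lower with Spp1 in all 4 libraries, at 192 against 388 CPM and at 1763 against 2823 CPM in H3R26C 5-Aza. Median UMIs before thinning were also higher with Spp1, with 25709 against 21692 in H3WT DMSO as the widest gap and 13156 against 12836 in H3R26C 5-Aza as the narrowest. Without the sarcomeric cells and the cells of 3 or more mitosis marker UMIs, the Cd44 difference was 0.98, 0.78, 0.73 and 0.81 on the log2 scale in H3WT DMSO, H3WT 5-Aza, H3R26C DMSO and H3R26C 5-Aza.

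Itgb3 was rare but, in the main thinning, showed the same tendency in 3 libraries. Its level with and without Spp1 was 11.6 and 4.20 relative UMIs in H3WT DMSO, 7.44 and 3.97 in H3WT 5-Aza, 15.0 and 5.86 in H3R26C DMSO, and 10.4 and 9.87 in H3R26C 5-Aza. The log2 differences were 1.28 (interval 0.78 to 1.76), 0.77 (0.37 to 1.16), 1.22 (0.85 to 1.59) and 0.071 (-0.40 to 0.56). In the last library the interval included 0. There a second random thinning gave 0.34, thinning to 10000 UMIs gave 0.36 and the unthinned cells gave 0.51. In H3WT 5-Aza these settings gave 0.50, 0.70 and 0.66, so the gap between these libraries changed with the draw. Whether Itgb3 differed in this respect between libraries was not tested.

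Itgav, Itgb1 and Itgb5 differed less than Cd44 between cells with and without Spp1. The log2 differences of Itgav lay between 0.087 and 0.22, those of Itgb1 between -0.047 and 0.12, and those of Itgb5 between -0.39 and -0.10. The lowest of these was Itgb5 in H3WT DMSO, at 90.8 relative UMIs with Spp1 and 120 without. Only 4.81% of genes with at least 0.05 UMIs per thinned cell had a lower ratio in that library. An Itgb5 UMI was found there in 34.8% (31.7 to 38.0%) of cells with Spp1 and 44.3% (42.4 to 46.1%) of those without. A second random thinning gave -0.31 there, the unthinned cells -0.25 and thinning to 10000 UMIs -0.20. Without the sarcomeric and mitosis cells, Itgb5 was at -0.35 in H3WT DMSO and -0.098 in H3WT 5-Aza. It was then at -0.070 in H3R26C DMSO and -0.060 in H3R26C 5-Aza. The sign was the same in all 4 libraries for Itgav and Itgb5. The interval included 0 for Itgav in H3WT DMSO and H3R26C 5-Aza and for Itgb5 in both 5-Aza libraries, and thinning to 10000 UMIs turned all 5 receptors to the higher side in H3R26C 5-Aza.

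**Figure D3:**
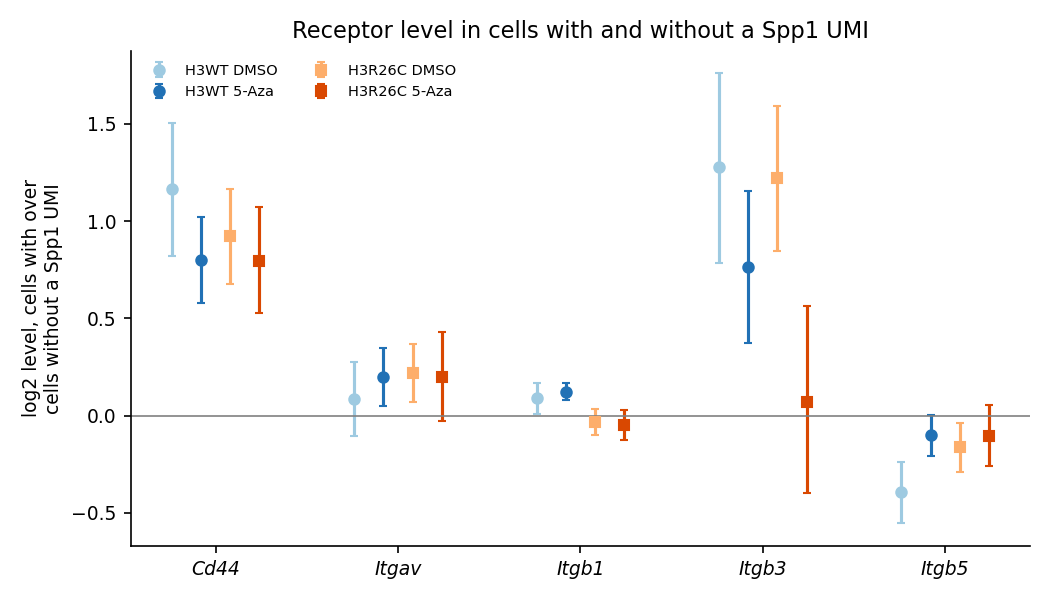
Log2 ratio (vertical axis) of each receptor's level in cells with a Spp1 UMI over cells without one, after thinning to 5000 UMIs, with 95% intervals for counting error, in the 4 libraries. The 4 Cd44 points lie between 0.79 and 1.17, and 3 of the Itgb3 points lie above 0.7, while Itgav, Itgb1 and Itgb5 lie between -0.39 and 0.22. The points are from the main draw, and the intervals leave out the spread between draws.

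Of the receptors with at least 0.05 UMIs per thinned cell, those higher by log2 0.5 or more with Spp1 were 1 of 4 in H3WT DMSO, where 3.58% of all genes were called higher and 2.83% lower. The count was 1 of 4 in H3WT 5-Aza, where 2.80% were higher and 1.94% lower. It was 1 of 4 in H3R26C DMSO, where 6.10% were higher and 6.72% lower, and 1 of 5 in H3R26C 5-Aza, where 7.09% were higher and 5.75% lower. The receptor called was Cd44 in each library, and none was lower by this amount. Itgb3 reached the minimum only in H3R26C 5-Aza.

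Cd44 was also graded with the amount of Spp1 per cell. In H3R26C 5-Aza, Cd44 was at 33.1 relative UMIs (27.3 to 39.8) in cells with 0 Spp1 UMIs, 41.5 with 1 to 4, 55.4 with 5 to 19, 67.6 with 20 to 99 and 83.8 (69.1 to 101) with 100 or more. Each step was higher than the one before it. The bins are from the main draw and were not repeated with another. In this library a second random thinning moved the Cd44 difference between cells with and without Spp1 from log2 0.79 to 1.34. The level of the bin with 0 Spp1 UMIs thus depends on the draw. In H3WT DMSO it was at 10.6, 21.9, 31.8 and 32.2 in the first 4 bins, the last of which held 25 cells and 4 Cd44 UMIs. In H3WT 5-Aza the same bins gave 16.3, 24.4, 35.0 and 35.0, its 8 cells with 100 or more gave 25.7 from 1 Cd44 UMI, and in H3R26C DMSO they gave 17.7, 29.7, 39.1 and 47.1. At 0 Spp1 UMIs in the main draw, Cd44 in H3R26C 5-Aza was already above its level in the 0 bins of the other 3 libraries.

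Itgb3 was graded in 3 of the 4 libraries. With 0, 1 to 4 and 5 to 19 Spp1 UMIs it was at 4.20, 7.75 and 19.1 relative UMIs in H3WT DMSO, at 3.97, 6.68 and 8.52 in H3WT 5-Aza and at 5.86, 13.2 and 18.4 in H3R26C DMSO. These values rest on 24 to 99 Itgb3 UMIs per bin. In the 20 to 99 bin it was at 32.2 (4 UMIs), 6.13 (7 UMIs) and 10.7 (5 UMIs). Itgb1 had no gradient in 1 direction shared by the libraries. Itgb1 went from 488 to 606 relative UMIs between 0 and 20 to 99 Spp1 UMIs in H3WT 5-Aza, and from 434 to 400 in H3R26C 5-Aza. Itgb5 was lower with 5 to 19 than with 0 Spp1 UMIs in each library. It went from 120 to 81.9 in H3WT DMSO, 100.1 to 93.6 in H3WT 5-Aza, 118.5 to 98.4 in H3R26C DMSO and 105 to 97.9 in H3R26C 5-Aza. The intervals of these 2 bins overlapped in both 5-Aza libraries. With 20 to 99 Spp1 UMIs it was at 80.5, 98.9, 130.5 and 91.3 in the same order, the first from 10 Itgb5 UMIs. Itgb3 in H3R26C 5-Aza was at 8.56 to 11.9 in the 4 lower bins and at 18.5 (12.0 to 27.4, 25 UMIs) in the 278 cells with 100 or more.

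**Figure D4:**
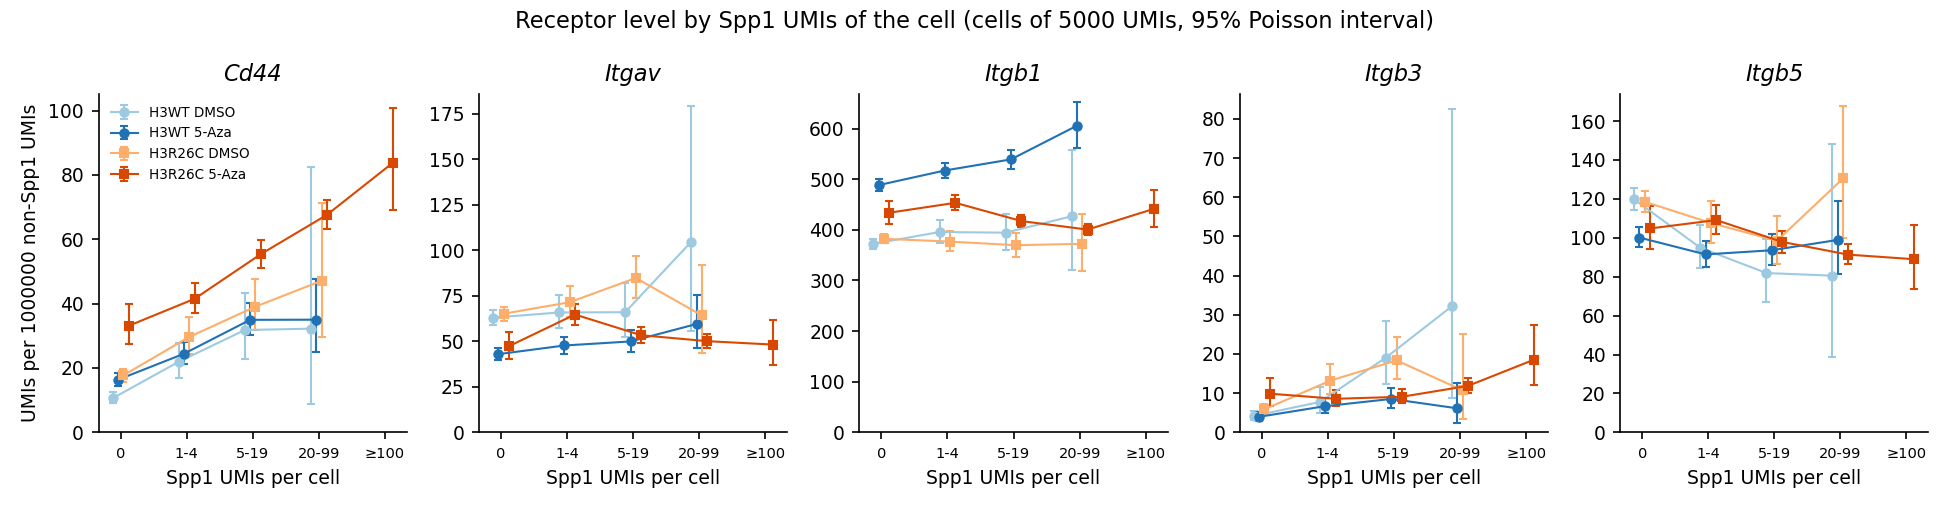
Level of each receptor in relative UMIs (per 1000000 UMIs other than Spp1, vertical axes, from 0) by the number of Spp1 UMIs in the thinned cell (horizontal axes), with exact 95% Poisson intervals, for bins of at least 20 cells. In H3R26C 5-Aza, Cd44 is higher at each step, from 33.1 to 83.8, and Itgb3 is higher at each of the first 3 bins in the other 3 libraries. The bins are from the main draw, and the intervals leave out the spread between draws.

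Nearly every cell had RNA of at least 1 receptor gene, most often Itgb1, which is a single chain of a pair. Without thinning, cells with no UMI of any of the 5 receptor genes made up 0.458% of the H3WT DMSO library, 0.254% with H3R26C and DMSO, 0.801% with H3WT and 5-Aza, and 0.827% with H3R26C and 5-Aza. After thinning, a receptor UMI was found in 93.3% of cells with Spp1 and 91.8% of cells without in H3WT DMSO, in 95.5% and 93.0% in H3WT 5-Aza, in 94.4% and 91.9% in H3R26C DMSO, and in 92.8% and 92.2% in H3R26C 5-Aza. The intervals overlapped in H3WT DMSO and in H3R26C 5-Aza. Itgb1 alone had a UMI in 97.2 to 98.5% of the unthinned cells of each library. RNA of both chains of an alpha v integrin, that is Itgav with any of the 3 beta chains, was found in 24.5% of thinned cells in H3WT DMSO, 19.2% in H3WT 5-Aza, 25.2% in H3R26C DMSO and 20.2% in H3R26C 5-Aza. The product of the separate shares was 24.3%, 18.8%, 24.8% and 19.6%. Without thinning the shares were 71.6%, 44.7%, 63.6% and 45.8%. After thinning, such a pair was found in 26.5% of cells with Spp1 and 23.8% of those without in H3WT DMSO. The shares were 20.3% and 18.1% in H3WT 5-Aza, 26.8% and 24.5% in H3R26C DMSO, and 20.4% and 18.3% in H3R26C 5-Aza. The share was higher with Spp1 in each library, and the intervals of cells with and without Spp1 overlapped in each. Without thinning the shares were 78.3% and 67.8% in H3WT DMSO and 47.9% and 39.5% in H3WT 5-Aza. They were 70.4% and 59.6% in H3R26C DMSO, and 46.3% and 32.6% in H3R26C 5-Aza. These unthinned intervals did not overlap in any library. Unthinned shares depend on depth, and the part of depth in them was not tested.

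Of the beta chains, Itgb3 in H3R26C 5-Aza differed most between cells with and without Itgav. There its level was 15.6 CPM over thinned cells with an Itgav UMI and 8.82 CPM over those without, a log2 difference of 0.76 (interval 0.47 to 1.05). In the other 3 libraries this difference was -0.016, -0.088 and 0.32, each with an interval that included 0. Itgb1 was higher with Itgav by 0.35 in H3R26C 5-Aza and by 0.013 to 0.17 in the other libraries. In H3R26C 5-Aza, barcodes with 5000 to 6000 UMIs had 136 CPM of Itgav, 612 of Itgb1 and 23.0 of Itgb3. All its kept cells had 48.8, 407 and 9.81 CPM. From its shallowest to its deepest group by UMIs, Itgav went from 65.8 to 42.8 CPM and Itgb3 from 12.0 to 9.10 CPM, neither in steady order. The part of depth in these differences was not tested.

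Cells were then divided by marker lists. The sarcomeric class, with at least 2% of UMIs from 13 skeletal muscle genes, held 134 cells in H3WT 5-Aza and 187 in H3R26C 5-Aza and 0 in both DMSO libraries. A further 27 and 41 cells had 1 to 2% of such UMIs. The mitosis class, with at least 3 UMIs of 10 mitosis genes after thinning, held 154 cells in H3WT DMSO, 417 in H3WT 5-Aza, 408 in H3R26C DMSO and 1270 in H3R26C 5-Aza. The adipocyte class, defined by UMIs of 3 or more of 8 adipocyte genes in the thinned cell, held 25 to 125 cells per library, and the rest formed the remaining class. These are ranges of marker content and not cell types.

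Spp1 was lower in the sarcomeric cells of both 5-Aza libraries, at 276 CPM against 800 CPM in the remaining cells of H3WT and at 1915 CPM against 5065 CPM in H3R26C. With the line at 5% of UMIs the sarcomeric cells were at 128 and 1311 CPM. The sarcomeric cells of H3R26C 5-Aza were thus still above the remaining cells of the other 3 libraries, and the part of free RNA in this level was not tested. Itgb5 was likewise lower in sarcomeric cells, at 31.6 against 97.9 CPM in H3WT and 50.9 against 101 CPM in H3R26C. Itgb1, whose product takes part in muscle attachment, had a higher CPM there, at 692 against 512 CPM and at 645 against 406 CPM. Its share of thinned cells with a UMI was lower in sarcomeric cells of H3WT, at 73.1% (64.8 to 80.4%) against 88.9% (88.0 to 89.7%). In H3R26C this share was 85.6% (79.7 to 90.3%) against 83.7% (82.8 to 84.6%). Itgb3 was at 1.46 and 1.82 CPM in sarcomeric cells, from 3 and 7 UMIs, and at 5.77 and 10.2 CPM in the remaining cells. By CPM, the adipocyte class had more Spp1 than the remaining cells in H3WT 5-Aza, at 1172 CPM (1124 to 1222) against 800 CPM. Per thinned cell the median was 1 Spp1 UMI in both classes. A Spp1 UMI was found in 54.4% (45.25 to 63.33%) against 50.1% of cells. At least 5 were found in 29.6% against 22.1%, and at least 20 in 1.60% against 3.87%. By CPM, the adipocyte class had less Spp1 in the other libraries, at 139 against 239 CPM in H3WT DMSO and 56.0 against 340 CPM in H3R26C DMSO. In H3R26C 5-Aza it was at 2599 against 5065 CPM.

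By CPM, the mitosis class had more Spp1 than the remaining cells in 3 libraries, at 820 against 239 CPM in H3WT DMSO, 1350 against 800 CPM in H3WT 5-Aza and 1377 against 340 CPM in H3R26C DMSO. In H3R26C 5-Aza the classes were close by CPM, at 4912 and 5065 CPM. Per thinned cell the mitosis class was higher there as well, with a median of 17 against 13 Spp1 UMIs. At least 5 UMIs were found in 83.3% (81.1 to 85.3%) of its cells and 69.1% (67.9 to 70.3%) of the remaining cells. Cd44 was higher in the mitosis class of all 4 libraries, at 46.3 against 13.4 CPM, 51.7 against 22.8 CPM, 49.0 against 20.3 CPM and 76.8 against 52.2 CPM. Itgb5 was lower in the mitosis class of each library, from 71.1 to 80.6 CPM against 97.9 to 117 CPM. The median UMIs of the mitosis class were 18993 to 33958, above those of the remaining cells in each library, and the part of depth in these levels was not tested.

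**Figure D5:**
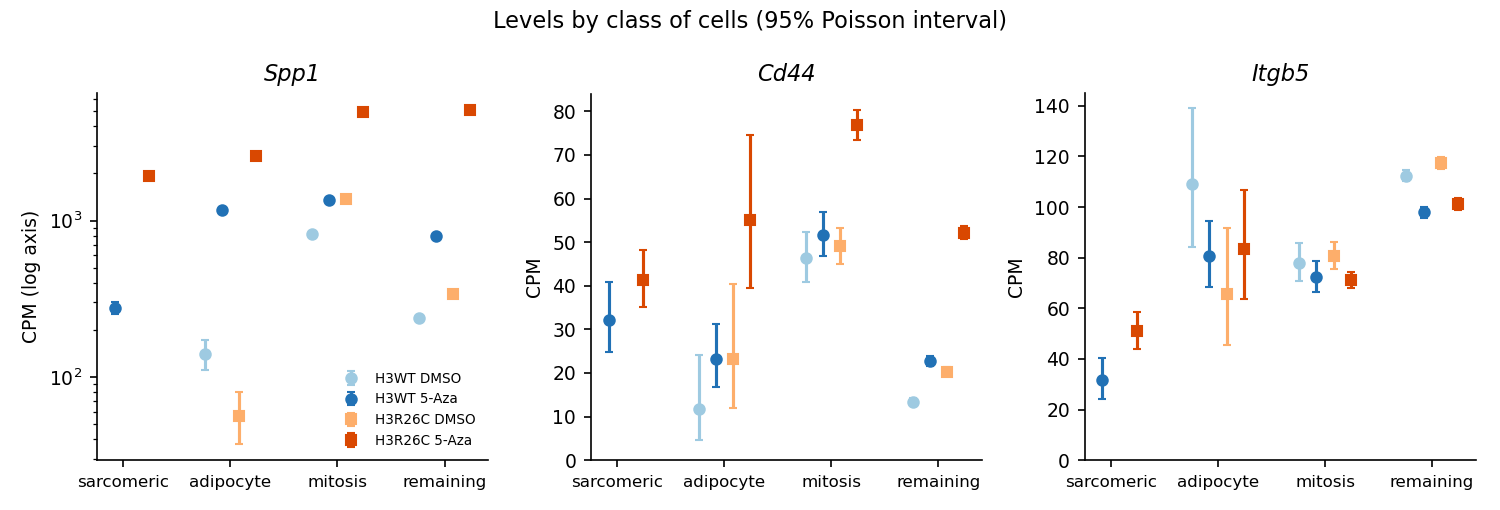
Level in CPM of Spp1 (log axis), Cd44 and Itgb5 (axes from 0) in the sarcomeric, adipocyte, mitosis and remaining classes of the 4 libraries, with exact 95% Poisson intervals. Spp1 and Itgb5 are lower in sarcomeric than in remaining cells, and Cd44 is higher in the mitosis class of each library.

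Most cells of high Spp1 content were in the remaining class, which was also the largest. Of the 3001 cells of H3R26C 5-Aza with at least 20 Spp1 UMIs, 2404 were remaining, 569 mitosis, 18 sarcomeric and 10 adipocyte cells. These classes made up 80.2%, 16.7%, 2.45% and 0.669% of that library. The level was reached by 39.3% of its remaining, 44.8% of mitosis, 9.63% of sarcomeric and 19.6% of adipocyte cells. Of the 238 such cells of H3WT 5-Aza, 206 were remaining and 29 mitosis cells, classes that made up 88.7% and 6.96% of that library. Median UMIs before thinning of the cells with at least 20 Spp1 UMIs were 13298 in H3R26C 5-Aza, against 13064 in its other cells. In H3WT 5-Aza they were 15391 against 13085. The 278 cells with at least 100 UMIs in H3R26C 5-Aza had a median of 12272, below the 13152 of its other cells.

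Over thinned cells, the genes most like Spp1 among 7670 genes were Ldha, Lgals3, Pgam1, Tspo and H3f3b, with mean Pearson correlations over the 4 libraries of 0.33, 0.28, 0.27, 0.27 and 0.26. Ldha and Pgam1 encode glycolytic enzymes, Lgals3 encodes galectin-3, Tspo a mitochondrial outer membrane protein and H3f3b histone H3.3. The correlation with Ldha was 0.30 in H3WT DMSO, 0.34 in H3WT 5-Aza, 0.35 in H3R26C DMSO and 0.35 in H3R26C 5-Aza. Ldha was itself at 548, 955, 704 and 1602 CPM in these libraries, in the same order of levels as Spp1. The lowest correlations were those of Clec3b (-0.41), which encodes the plasminogen-binding protein tetranectin, Ebf1 (-0.38), an early B cell and adipocyte transcription factor, and Smoc2 (-0.37), a matricellular protein. Smoc2 had a UMI in 24.7% of thinned H3R26C 5-Aza cells with Spp1 and in 53.9% of those without. The points share a library and a depth of 5000 UMIs, and these correlations are descriptions of single cells within 1 library each.

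Among the receptors, Cd44 had a mean correlation of 0.11 with Spp1, rank 166 of 7670, and was between 0.10 and 0.12 in each library. Itgb1 (0.022), Itgav (0.016) and Itgb5 (-0.047) ranked 1948, 2368 and 7046. Itgb3 had a UMI in fewer than 5% of cells and was not ranked.

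Other genes of the osteopontin pathway were counted from 6 lists in H3R26C 5-Aza against H3WT 5-Aza, at the line of log2 1 in size, which 3.58% of all 9023 genes passed as higher and 2.47% as lower. Of the other integrin chains that bind osteopontin, 2 of 6 had at least 10 CPM and 0 were called. Itga9, an alpha chain under that minimum and named after its values were seen, was at 1.28 CPM in H3R26C and 8.75 CPM in H3WT (142 and 738 UMIs, log2 ratio -2.10, interval -2.26 to -1.93). Of the SIBLING proteins, the family of bone and tooth matrix proteins to which osteopontin belongs, 1 of 4 had that level and was higher. Of the other RGD ligands, 9 of 10 had that level and 0 were called, with a median log2 ratio of -0.32 against -0.032 over all genes. Fibronectin (Fn1), named though not past the line, was at 2377 CPM in H3R26C and 4132 CPM in H3WT. Of the ligands with at least 10 CPM, Tnc, Npnt, Mfge8 and Thbs1 were higher in H3R26C, by log2 0.70, 0.42, 0.37 and 0.12. The others were lower. Of the enzymes that cut, cross-link or phosphorylate osteopontin, 5 of 9 had that level, 1 was higher and 1 was lower. Of 10 integrin adhesion proteins 0 were called, with a median of -0.16, and of the CD44 partners and hyaluronan genes 6 of 9 had that level and 1 was higher.

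The SIBLING gene was Dmp1, whose product organizes bone and dentin mineral. Dmp1 was at 3.43 CPM in H3WT DMSO, 9.13 CPM in H3WT 5-Aza, 5.38 CPM in H3R26C DMSO and 23.0 CPM in H3R26C 5-Aza, which is the order of Spp1. The other SIBLING genes, Ibsp, Dspp and Mepe, were each under 0.1 CPM. Chosen after its levels were seen, Dmp1 was also compared by Spp1 content. It had a UMI in 2.90% of thinned cells with Spp1 and 1.10% of those without in H3WT DMSO, 5.74% and 1.30% in H3WT 5-Aza, 3.56% and 1.30% in H3R26C DMSO, and 8.96% and 2.76% in H3R26C 5-Aza. The log2 differences of its level were 1.18, 1.91, 1.14 and 2.00, each with an interval above 0.

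The enzymes called were Mmp3 and Mmp2, both matrix metalloproteinases. Mmp3 (stromelysin) was at 0.702, 7.59, 1.89 and 17.4 CPM in H3WT DMSO, H3WT 5-Aza, H3R26C DMSO and H3R26C 5-Aza, with a log2 ratio of 1.10 between the 5-Aza libraries. Mmp2 (gelatinase A) was at 874, 984, 614 and 446 CPM, with a log2 ratio of -1.14. Has1, a hyaluronan synthase and so a maker of the main CD44 ligand, was at 0.714, 2.75, 1.43 and 11.5 CPM, with a log2 ratio of 1.74. Mmp3 and Has1 were thus highest in the library with the most Spp1 and Cd44, and Mmp2 was lowest there. Dmp1, Mmp3, Mmp2 and Has1 were named for their ratio between the 5-Aza libraries, so part of their order of libraries followed from that choice. In H3R26C 5-Aza against H3R26C DMSO, where 5.25% of 9066 genes were higher and 3.18% lower, the genes past the line were Itgb8 of 2 integrin chains tested, Dmp1 of 1 SIBLING gene, Edil3 and Npnt of 9 RGD ligands and Has1 of 6 CD44 and hyaluronan genes, all higher. Of 6 enzymes tested Mmp3 was higher and Mmp9 lower, and 0 of 10 adhesion proteins were called. Itga9, under the minimum of 10 CPM, was at 1.28 against 8.34 CPM, a log2 ratio of -2.03. Those of this second set that are not named above were named after their values were seen.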

How the data were processed

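Single-cell RNA sequencing counts of 4 libraries were used, 1 per condition. The authors made UMI counts per gene and barcode with Cell Ranger (6.1.0 in the file headers, version 6 in the submitters' processing notes) on mm10 and deposited the filtered matrices without normalization. Every column was mapped to a library (0 unmapped). The study's cell filter, which had not been applied to the deposited counts, was applied here. Levels are UMIs summed over kept cells per 1000000 UMIs (CPM). Log2 ratios used a pseudocount of 1 CPM, and all genes with at least 10 CPM in either library were the background. Cells were thinned without replacement to 5000 UMIs with a fixed seed, and no kept cell was shallower. Thinned levels of receptors left Spp1 UMIs out of the total. Pearson correlations were of log(1 + thinned UMIs). Classes came from marker lists, without clustering. Cells were assigned in the order sarcomeric, adipocyte, mitosis, remaining. With 1 library per condition no test was made, and cells were not treated as replicates of a condition. Intervals of shares count cells as independent draws within 1 library. Total UMIs per library were 84060490 to 110712425, at which 1 UMI was 0.00903 to 0.0119 CPM.

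The members, lists and alternatives were chosen with earlier results of these data known. The genes named by rule are the 6 members, the 5 most and 3 least like Spp1, and list genes past log2 1 between the 5-Aza libraries, at most 4 per list. Further list genes, among them Fn1, Itga9, Itgb8, Edil3, Npnt and Mmp9, were named outside this rule. The comparison of Dmp1 by Spp1 content and the CG counts were added after the data were seen. Gene positions came from GENCODE M21, matched by identifier, and promoters from RefSeq on GRCm38.p6, where 5 of the 6 members were matched by symbol. Itgb3 was not. The ratio, thinning and co-detection steps were tested on simulated data. Python 3.11.15, numpy 2.4.6, scipy 1.17.1, pandas 2.3.3 and matplotlib 3.10.9 were used. Alternatives changed the cell filter (looser, at least 1000 UMIs and 500 genes, or stricter, from 10000 UMIs, 2500 genes and no more than 10% mitochondrial), the thinning, the seed, the pseudocount, the expression minimum, the scaling, the classes and the Spp1 minimum of a cell.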

Additional observations from a re-analysis of the deposited data

Results flagged for a closer look

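Spp1 was also present in the barcodes left out by the cell filter, and in both 5-Aza libraries this level was above that of the left-out barcodes of the DMSO libraries. The 9009 left-out barcodes of H3WT 5-Aza held 284 CPM of Spp1 (interval 273 to 295) and the 4491 of H3R26C 5-Aza held 2173 CPM (interval 2139 to 2208), against 108 CPM in those of H3WT DMSO and 109 CPM in those of H3R26C DMSO. In each library this was below the level of the kept cells. Median UMIs of the left-out barcodes were 705 to 978. In H3R26C 5-Aza the left-out barcodes had more Itgb3 than the kept cells, at 19.4 CPM (16.2 to 22.9, 136 UMIs) against 9.81 CPM, and more Itgav, at 73.4 against 48.8 CPM. These differences were not tested.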

How the results depend on the processing

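No paired analysis was possible because only 1 library was made per condition. No log2 ratio of Spp1 changed sign. Spp1 in H3WT 5-Aza against DMSO was 1.59 with the looser cell filter, with the median gene set to 0 and with a pseudocount of 10 CPM, 1.68 with the stricter filter, 1.65 without sarcomeric cells, 1.74 without mitosis cells and 1.79 as a mean over cells. In H3R26C the same ratio was 3.34 with the looser filter and with the pseudocount of 10, 3.39 without sarcomeric cells, 3.86 without mitosis cells, 3.64 as a mean over cells and 3.41 with the median gene at 0. H3R26C DMSO against H3WT DMSO was 0.50 without mitosis cells, 0.83 as a mean over cells and 0.75 with the median gene at 0. H3R26C 5-Aza against H3WT 5-Aza was 2.48 with the stricter filter, 2.62 without mitosis cells, 2.68 as a mean over cells, 2.56 with the median gene at 0 and 2.52 with the pseudocount of 10.

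With a minimum of 1 CPM, the share of genes called higher was 4.88% in H3WT 5-Aza against DMSO, 9.09% in H3R26C 5-Aza against DMSO and 1.91% in H3R26C DMSO against H3WT DMSO. For H3WT DMSO, H3WT 5-Aza, H3R26C DMSO and H3R26C 5-Aza, cells with a Spp1 UMI were 36.5%, 62.0%, 37.2% and 96.3% without thinning and 30.8%, 61.7%, 34.5% and 94.9% after thinning to 10000 UMIs, which left out 117, 1285, 281 and 1805 shallower cells, and 54.1% with the stricter filter in H3WT 5-Aza. The top 10% of cells held 77.5%, 57.8%, 75.0% and 41.6% of Spp1 UMIs at 10000 UMIs. Without thinning they held 63.1% in H3WT 5-Aza, 79.4% in H3R26C DMSO and 43.7% in H3R26C 5-Aza, and with the stricter filter 57.9% in H3WT 5-Aza and 41.7% in H3R26C 5-Aza. Cells with Itgav and a beta chain were 71.6%, 44.7%, 63.6% and 45.8% without thinning and 45.5%, 36.3%, 46.0% and 34.8% at 10000 UMIs. In H3R26C 5-Aza, 5 receptors in place of 3 were higher with Spp1 at 10000 UMIs. With the line of the sarcomeric class at 5%, its Spp1 was 128 CPM in H3WT 5-Aza and 1311 CPM in H3R26C 5-Aza, and at 1% it was 2192 CPM in the latter. Spearman correlations shared 3 of the 5 genes most like Spp1. Why these values moved was not tested, except that deeper cells by construction hold more UMIs.

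Receptor ratios between libraries changed sign in 10 of 180 alternatives, all with a size of 0.050 or less, and ratios by Spp1 content in 3 of 100, with a size of 0.10 or less. The largest move there was Cd44 in H3R26C 5-Aza, by 0.54 with another seed. Depth limits Itgb3 most, with 498 to 1086 UMIs per library.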
